A study of Mus musculus with 5 samples.

Results

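The endothelin and adrenomedullin genes studied here were the ligand genes Edn1 and Adm, the converting enzyme gene Ece1, the receptor genes Ednra, Ednrb and Calcrl, and the receptor partner genes Ramp2 and Ramp3. They were 8 of the 20145 mouse genes that the arrays measured and were represented by 9 probes, 2 of them for Ednrb. All 9 probes were found by their RefSeq accession. The genes had been chosen by their signals across the same 5 arrays, so every value below is a description of these arrays and no value is tested. The mice were female BALB/c; RNA was taken from the cells of a peritoneal lavage done 2 h after an intraperitoneal injection and was hybridised with a single dye (Cy3) to Agilent arrays.

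The 5 groups had 1 array each. The vehicle group received phosphate-buffered saline (PBS). The AEPS group received 50 µg of AEPS, the polysaccharide preparation of Actinidia eriantha roots. The OVA group received 25 µg of ovalbumin, a model antigen. The OVA+AEPS group received 25 µg of ovalbumin with 50 µg of AEPS, and the OVA+Alum group received 25 µg of ovalbumin with 200 µg of alum, an aluminium adjuvant. The labels give neither an age nor the number of mice behind an array, and they do not say whether mice were pooled. With 1 array per group, the spread between animals is unknown.

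Endothelin-1 is made as a precursor that furin-type proteases cut to big endothelin, from which endothelin-converting enzyme 1 (the product of Ece1) releases the active peptide. It acts through the receptors ETA (Ednra) and ETB (Ednrb), constricts vessels through ETA, and is cleared from the circulation through ETB; macrophages can secrete it after contact with microbial products. Adrenomedullin (Adm) is a vasodilator and antimicrobial peptide whose receptor is the calcitonin receptor-like receptor (Calcrl) joined to the membrane protein RAMP2 or RAMP3. Both peptides are known from inflamed tissue, where they act on vessels and leukocytes.

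Signals are scanner intensities in arbitrary units, and differences are in log2 units after each array was divided by its own 75th percentile. That percentile lay between 289 and 371 units on the 5 arrays. A difference of 1 on this scale is a 2-fold difference. Each difference is printed with a technical standard error (SE) taken from the scanner's error estimate, and an interval of 1.96 SE covers scanner error only. Where a probe has several spots, as for Edn1, the mean error of single spots was used, without a reduction for their number. Between 56.7% and 60.02% of probes were well above background, and no spot was saturated. All 9 probes were well above background on all 5 arrays. Signals of different probes are not set against each other, since probes differ in how they bind.

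The 5 arrays lay on 1 slide. Row 1 held the PBS array and row 2 held the 4 treated ones, so in a comparison with PBS the treatment cannot be told apart from the slide row. Column 4 held both PBS and OVA+Alum. Over all 15568 genes above background on at least 1 array, 177 (1.14%) had at least 2-fold less signal on both column 4 arrays than on any of the 3 arrays outside it, and 15 had at least 2-fold more. Edn1 and Adm were among the 177 genes. For Edn1 the lowest of the other 3 arrays stood 1.94 above the higher column 4 array, and for Adm it stood 1.28 above. Calcrl was also lower on both column 4 arrays, with a gap of 0.89, under 2-fold. By any margin, 2346 of the 15568 genes (15.07%) were lower on both column 4 arrays and 3550 were higher. The comparison of OVA+Alum with PBS lies within column 4. Those of AEPS with OVA, of OVA+AEPS with OVA and of OVA+AEPS with AEPS do not involve column 4. They still cross columns, since AEPS lay in column 1, OVA in column 2 and OVA+AEPS in column 3. The values of all these comparisons stand beside the others below. The part of the slide column in these differences was not tested.

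The level of Edn1, the gene of the endothelin-1 precursor, was lowest with PBS and highest with ovalbumin and AEPS together. Its probe is printed 10 times on each array. The mean signal was 24.2 with PBS, 1809 with AEPS, 838 with OVA, 2520 with OVA+AEPS and 215 with OVA+Alum. The PBS signal was 2.39 times the lowest signal that counted as above background on that array, and the OVA+AEPS signal was 196 times that limit on its own array. The lowest value thus lay close to the limit of detection, while the other 4 did not.

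The spots of the 5 arrays did not overlap for Edn1. Relative to the 75th percentile of the array, the 10 PBS spots lay between 0.0567 and 0.111, and the 10 OVA+Alum spots between 0.561 and 0.617. The 10 OVA spots lay between 2.16 and 2.36. With AEPS 9 spots lay between 4.78 and 5.36, and with OVA+AEPS 9 spots lay between 7.26 and 7.68, after 1 spot on each of these arrays had been left out as an outlier. The order from high to low was therefore OVA+AEPS, AEPS, OVA, OVA+Alum, PBS, and each neighbouring pair differed beyond the technical interval. Repeat spots of an array share 1 RNA sample, so this separation concerns the measurement and not the animals.

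**Figure D1:**
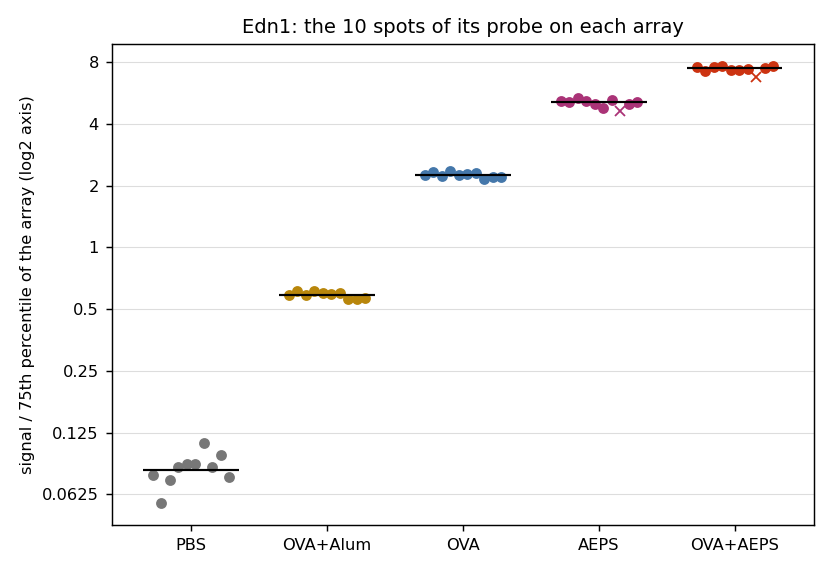
Signal of each Edn1 spot divided by the 75th percentile of its array (log2 axis) on the 5 arrays; horizontal lines are the means of the spots used and crosses are the 2 spots left out as outliers. The spots run from 0.0567 to 0.111 with PBS up to 7.26 to 7.68 with OVA+AEPS, with no overlap between the spots used on different arrays.

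Against PBS, Edn1 was higher by 5.95 ± 0.24 (log2 difference ± technical SE) with AEPS, 61.8-fold, which ranked 14 from the top among 14944 genes. It was higher by 4.77 ± 0.24 with OVA, which ranked 34 among 15050 genes, and by 6.50 ± 0.24 with OVA+AEPS, 90.5-fold, which ranked 5 among 15003 genes. With OVA+Alum it was higher by 2.83 ± 0.24, 7.13-fold. The Edn1 level was thus higher on every treated array than on the PBS array, and least so with ovalbumin and alum. Treatment and slide row cannot be told apart in these differences. These 4 comparisons share the PBS array, on which Edn1 was dim. After a normexp background correction with quantile normalization the same differences were 4.42, 3.26, 4.93 and 1.60. Over the 5 arrays Edn1 spanned 6.50, and 24 of 15568 genes spanned more.

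Among the arrays of mice that received ovalbumin, the Edn1 level differed between the adjuvants. With OVA+AEPS it was higher than with OVA by 1.73 ± 0.20, 3.31-fold. With OVA+Alum it was lower than with OVA by 3.84-fold, a difference of -1.94 ± 0.20. Between the adjuvants, OVA+AEPS stood above OVA+Alum by 3.67 ± 0.20, 12.7-fold. With AEPS alone Edn1 was higher than with OVA by 1.18 ± 0.20, and the addition of ovalbumin to AEPS went with a further 0.55 ± 0.20. AEPS went with a difference of 5.95 without ovalbumin and of 1.73 with it, and the second minus the first was -4.22 ± 0.32. The first difference rests on the dim PBS signal, and the SE covers scanner error only. After normexp correction the differences were 4.42 without ovalbumin and 1.67 with it. With 1 array per group this contrast was not tested.

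Adm, the gene of adrenomedullin, followed the same order at a smaller range. Its signal was 1332 with PBS, 7039 with AEPS, 4669 with OVA, 8873 with OVA+AEPS and 1895 with OVA+Alum. The AEPS arrays were highest, and the PBS and OVA+Alum arrays were lowest and did not differ beyond the technical interval. Every other neighbouring pair in the order did. The order shared by Edn1 and Adm occurred in 331 of 14391 genes (2.30%) that were above background on at least 3 arrays, and 185 of these spanned at least 2-fold.

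Against PBS, Adm was higher by 2.11 ± 0.20 with AEPS, by 1.45 ± 0.20 with OVA and by 2.51 ± 0.20 with OVA+AEPS, 5.71-fold. With OVA+Alum the difference from PBS was 0.17 ± 0.20. Against OVA, Adm was higher by 1.06 ± 0.20 with OVA+AEPS, which became 0.96 when arrays were scaled to their median, and was lower with OVA+Alum, at -1.28 ± 0.20. OVA+AEPS stood above OVA+Alum by 2.34 ± 0.20, 5.07-fold. Adm thus separated the adjuvants in the same direction as Edn1, but with alum it stood at the PBS level and Edn1 did not. AEPS stood above OVA by 0.66 ± 0.20, and OVA+AEPS above AEPS by 0.40 ± 0.20; neither reached 2-fold.

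The promoters of Edn1 and of the other genes that were higher on the same 3 arrays, Adm and Calcrl, are printed from RefSeq's GRCm38.p6 annotation, 250 bases before the start of each gene, 5′ to 3′ on the gene's strand. They are shown because these 3 genes shared a pattern across the arrays. For Edn1 a stretch of 30 bases after the start is added, since matches lie there. The window before the start of Edn1 is chr13:42301226-42301475 (plus strand), and the stretch after the start is chr13:42301481-42301510. The window of Adm is chr7:110627407-110627656 (plus strand), and that of Calcrl is chr2:84425267-84425516 (minus strand). Capitals mark every match of the 5 motifs searched.
Edn1 before start: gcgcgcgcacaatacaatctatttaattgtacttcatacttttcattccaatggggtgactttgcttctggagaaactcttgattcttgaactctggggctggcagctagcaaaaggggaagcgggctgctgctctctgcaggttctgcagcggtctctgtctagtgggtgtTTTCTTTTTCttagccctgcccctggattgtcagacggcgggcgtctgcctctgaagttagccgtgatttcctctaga
Edn1 after start: gtcTTATCTctggctgCACGTtgcctgtgg
Adm before start: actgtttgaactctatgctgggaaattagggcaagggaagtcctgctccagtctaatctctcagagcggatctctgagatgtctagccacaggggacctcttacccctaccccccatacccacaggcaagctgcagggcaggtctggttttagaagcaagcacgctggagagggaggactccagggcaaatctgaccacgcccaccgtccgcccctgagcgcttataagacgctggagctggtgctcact
Calcrl before start: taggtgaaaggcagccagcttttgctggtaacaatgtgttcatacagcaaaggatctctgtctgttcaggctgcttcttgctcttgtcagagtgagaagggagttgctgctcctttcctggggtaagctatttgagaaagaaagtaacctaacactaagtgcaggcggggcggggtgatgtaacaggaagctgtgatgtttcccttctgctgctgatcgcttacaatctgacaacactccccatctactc

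The 5 motifs were searched on both strands in the window from 250 bases before to 50 bases after each start, for which 32851 RefSeq windows were available. The core of the hypoxia response element (ACGTG) was in 19.6% of all windows, the AP-1 site (TGANTCA) in 7.81%, a loose NF-kB form (GGG, any 5 bases, CC) in 50.8%, the interferon-stimulated response element (GAAA, any 2 bases, GAAA) in 3.44% and the GATA site (AGATAA) in 11.2%. Edn1 held 1 match of the interferon-stimulated response element, at bases -78 to -69 on the strand opposite to the gene. It also held a GATA match at bases 9 to 14 and a hypoxia core match at bases 22 to 26 after the start, both on the opposite strand. None of the 5 motifs matched in the windows of Adm and Calcrl, which says only that these letters are not in those windows. Of the genes that were not higher on these arrays, Ece1 held 1 match of the interferon-stimulated response element and 2 overlapping hypoxia core matches over its 4 windows, and Ece1, Ednra, Ednrb and Ramp3 held matches of the NF-kB form. Ramp2 was not searched. The capitals do not mark overlapping matches in Edn1.

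Ece1 encodes the enzyme that turns big endothelin into the active peptide. Its signal was 206 with PBS, 184 with AEPS, 215 with OVA, 160 with OVA+AEPS and 236 with OVA+Alum. The scaled order put PBS first and OVA+AEPS last, but no neighbouring pair differed beyond the technical interval. The largest difference, OVA+AEPS against PBS, was -0.59 ± 0.21. Ece1 thus stayed within 2-fold on all arrays where its substrate gene spanned 90.5-fold.

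Ednrb encodes the ETB receptor, and its highest level was with PBS. The first probe (A_52_P577662) gave 4354 with PBS, 2754 with AEPS, 2651 with OVA, 2289 with OVA+AEPS and 2152 with OVA+Alum. The second probe (A_55_P2089710) gave 1839 with PBS, 1031 with AEPS, 1152 with OVA, 1109 with OVA+AEPS and 935 with OVA+Alum. On both probes the PBS array stood apart and the other 4 lay close together. The first probe differed from PBS by -0.95 ± 0.20 with AEPS, -1.08 ± 0.20 with OVA, -1.15 ± 0.20 with OVA+AEPS and -1.35 ± 0.20 with OVA+Alum.

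For the second Ednrb probe the same differences were -1.13, -1.03, -0.95 and -1.31, each with an SE of 0.20. The 2 probes thus differed from each other by no more than this SE in every comparison with PBS, although they fell on different sides of 2-fold with AEPS and with OVA+AEPS. With spike-in scaling the differences of the first probe were -0.36 with AEPS, -0.82 with OVA and -0.79 with OVA+AEPS, and with median scaling it was -0.96 with OVA, so only the OVA+Alum difference passed 2-fold under every setting tried. Among the 4 treated arrays no neighbouring pair in the order differed beyond the technical interval. The widest pair of them, AEPS and OVA+Alum, stood 0.40 ± 0.20 apart, where Edn1 differed by 3.12 ± 0.20.

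Ednra encodes the ETA receptor. Its signal was 302 with PBS, 238 with AEPS, 325 with OVA, 258 with OVA+AEPS and 290 with OVA+Alum. After scaling the PBS array was highest and the AEPS array lowest, 0.64 ± 0.20 apart, and no neighbouring pair differed beyond the technical interval. Ednra did not reach 2-fold in any of the 10 pairs of arrays.

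Calcrl, which encodes the receptor subunit that binds adrenomedullin, gave dim signals throughout. They were 15.2 with PBS, 38.8 with AEPS, 51.4 with OVA, 55.3 with OVA+AEPS and 21.6 with OVA+Alum. The PBS signal was only 1.49 times the lowest signal above background on its array. As with Adm, the PBS and OVA+Alum arrays were lowest and did not differ beyond the technical interval (0.17 ± 0.32). Among the 3 higher arrays OVA stood 0.34 ± 0.24 above AEPS and OVA+AEPS 0.24 ± 0.22 above OVA, both within the technical interval, while OVA+AEPS stood 0.58 ± 0.24 above AEPS, beyond it but under 2-fold.

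Against PBS, Calcrl was higher by 1.06 ± 0.30 with AEPS, by 1.40 ± 0.29 with OVA and by 1.64 ± 0.29 with OVA+AEPS. Against OVA, it was lower with OVA+Alum, at -1.23 ± 0.26. OVA+AEPS stood above OVA+Alum by 1.47 ± 0.26. All 5 of these differences lost the 2-fold call after normexp correction, which adds an offset of 50 units to every signal: they became 0.31, 0.49, 0.56, -0.45 and 0.52. The direction was the same in each case.

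Ramp2 and Ramp3 encode the partners that make Calcrl an adrenomedullin receptor. The Ramp2 signal was 49.8 with PBS, 37.3 with AEPS, 49.3 with OVA, 39.7 with OVA+AEPS and 42.0 with OVA+Alum. The Ramp3 signal was 6720 with PBS, 6331 with AEPS, 7468 with OVA, 5667 with OVA+AEPS and 10200.2 with OVA+Alum. Neither gene reached 2-fold in any pair of arrays, and in neither did a neighbouring pair in the order differ beyond the technical interval. Ramp2 was highest with PBS and lowest with AEPS, 0.71 ± 0.24 apart. Ramp3 was highest with OVA+Alum and lowest with OVA+AEPS, 0.73 ± 0.20 apart.

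**Figure D2:**
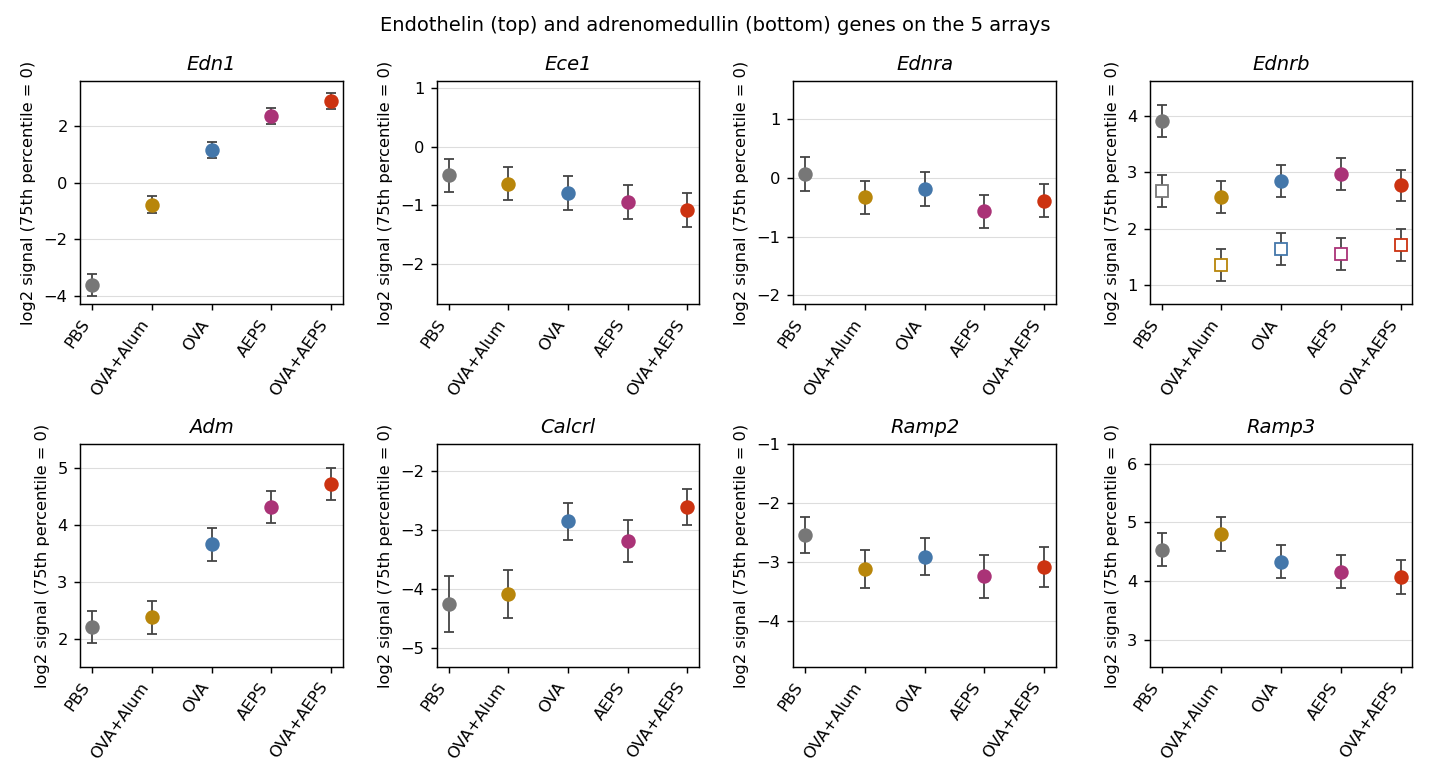
Level of each gene on the 5 arrays as the log2 signal relative to the 75th percentile of the array; points are single arrays, bars are 1.96 technical SE, open squares are the second Ednrb probe, and the vertical scales differ between panels. Edn1 and Adm climb from PBS to OVA+AEPS, Calcrl is lowest with PBS and OVA+Alum, Ednrb is highest with PBS, and the other 4 genes span less than 2-fold.

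The differences of Ece1, Ednra, Ramp2 and Ramp3 were small enough to depend on the scaling. In AEPS against PBS they were -0.45, -0.64, -0.71 and -0.38, and with spike-in scaling 0.14, -0.04, -0.12 and 0.22. Spike-in scaling moved the median difference of all genes in that comparison from -0.16 to 0.44. The sign of Ece1 and Ramp3 in AEPS against PBS thus turned with the scaling, and no direction is read from these 4 genes. Over the 5 arrays they spanned between 0.59 and 0.73, against a median span of 0.72 over all 15568 genes, while Adm spanned 2.51, Calcrl 1.64 and Ednrb 1.35.

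Set against all genes, the counts were as follows; a gene counts where it differed at least 2-fold and was above background on at least 1 of the 2 arrays. With AEPS against PBS, 3 of the 8 genes (Edn1, Adm and Calcrl) were higher and 0 lower, where 8.82% of all genes were higher, 6.79% were lower and 15.6% differed in either direction. With OVA against PBS the same 3 genes were higher and Ednrb was lower, against 6.94% and 3.93% of all genes (10.9% in either direction). With OVA+AEPS against PBS the count was again 3 higher and 1 lower, against 8.54% and 5.84% (14.4% in either direction). With OVA+Alum against PBS only Edn1 was higher and Ednrb lower, against 6.38% and 5.3% of all genes (11.7% in either direction). The 4 comparisons share the PBS array.

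Between treated arrays, OVA+AEPS against OVA had 2 of the 8 genes higher (Edn1 and Adm) and 0 lower, where 4.09% of all genes were higher and 3.63% lower (7.72% in either direction). OVA+Alum against OVA had 0 higher and 3 lower (Edn1, Adm and Calcrl), against 3.79% and 5.87% of all genes (9.65% in either direction). OVA+AEPS against OVA+Alum had these 3 higher and 0 lower, against 7.08% and 6.03% (13.1% in either direction). OVA+AEPS against AEPS had 0 of 8 in either direction, against 2.11% and 1.88% (3.99% in either direction). AEPS against OVA had 1 higher (Edn1) and 0 lower, against 4.17% and 3.37% (7.54% in either direction). AEPS against OVA+Alum had 2 higher (Edn1 and Adm) and 0 lower, against 6.85% and 6.46% (13.3% in either direction). Because the genes were chosen by these signals, nothing is read from their counts beside those of all genes. The median difference over the 8 genes was -0.42 in AEPS against PBS, where that of all genes was -0.16, since 5 of the 8 had negative values.

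**Figure D3:**
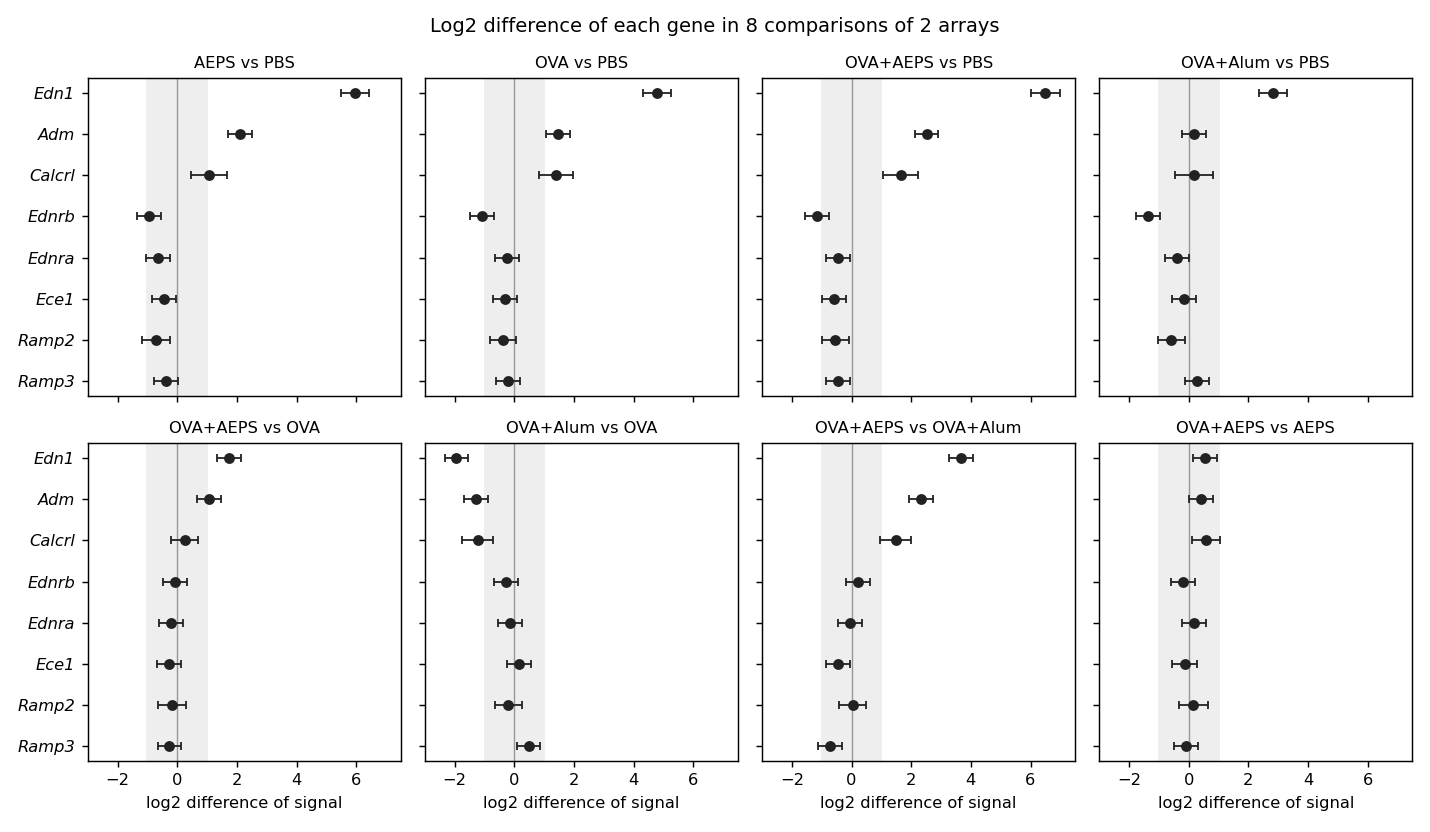
Log2 difference of each gene (horizontal axis) in 8 comparisons of 2 arrays, the first named minus the second; bars are 1.96 technical SE and grey marks differences under 2-fold. Edn1 lies at 5.95, 4.77, 6.50 and 2.83 in the upper row, the comparisons with PBS, and Edn1, Adm and Calcrl lie on opposite sides of 0 in OVA+AEPS against OVA+Alum and OVA+Alum against OVA.

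Other genes of these pathways were followed through a list of 20. In the comparisons with PBS 14 of them were above background on at least 1 of the 2 arrays. Of these 14, 1 was higher past 2-fold and 3 were lower with each of the 4 treatments. Among all genes, 6.38% to 8.82% were higher and 3.93% to 6.79% lower in these comparisons. The higher gene of the list was Cpa3 with AEPS, OVA and OVA+AEPS and Calca with OVA+Alum. Adm2 and Ackr3 were lower with all 4, the third being Ecel1 with OVA+AEPS and Ece2 otherwise. Ece2 and Ecel1 were not well above background on those treated arrays, so only bounds are known: with PBS Ece2 was at least 1.46-fold higher than with AEPS, 1.77-fold than with OVA and 2.02-fold than with OVA+Alum, and Ecel1 at least 2.08-fold higher than with OVA+AEPS. The median difference of the 14 was -0.21 with AEPS, -0.09 with OVA, -0.29 with OVA+AEPS and -0.31 with OVA+Alum, where that of all genes was -0.16, -0.12, -0.13 and -0.07. The other ligands Edn2, Edn3 and Iapp, the peptidase genes Mme and Kel and the receptor gene Gpr182 were not well above background on any array. Edn1 was thus the only endothelin gene above background.

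Among processing and degrading enzymes, Furin, a protease that cuts the endothelin precursor, gave 6246 with PBS and between 12307 and 14086 on the other 4 arrays. The scaled differences of Furin from PBS were between 0.64 and 0.84, under 2-fold in each case. Cpa3, the mast cell carboxypeptidase that degrades endothelin-1, gave 2637 with PBS, 13667 with AEPS, 15696 with OVA, 12269 with OVA+AEPS and 2872 with OVA+Alum. The Cpa3 differences from PBS were 2.08, 2.21, 2.00 and -0.21, so Cpa3 separated the same pair of low arrays from the same 3 high arrays as Edn1 and Adm. Cpa3 was the only gene of the list besides them with a 2-fold gap between the column 4 arrays and the others. Cma1, the mast cell chymase gene, differed from PBS by 0.01 to 0.38. Pam, which amidates adrenomedullin, differed by -0.40 to -0.01, and Ece2 was above background with PBS only, at a signal of 16.0.

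Adm2 encodes the related peptide intermedin. It gave 228 with PBS and was not well above background on the other 4 arrays, so the Adm2 level with PBS was at least 19.1-fold higher than with AEPS, 25.3-fold higher than with OVA, 20.7-fold higher than with OVA+AEPS and 28.8-fold higher than with OVA+Alum. Each bound sets the PBS level against the lowest signal above background on the other array, or against the Adm2 signal there where that was higher. Ackr3, a scavenger receptor that takes up adrenomedullin and the chemokine CXCL12, gave 3736 with PBS, 857 with AEPS, 892 with OVA, 519 with OVA+AEPS and 696 with OVA+Alum. The Ackr3 differences from PBS were -2.42, -2.43, -3.07 and -2.76. Ednrb, Ackr3 and Adm2 were thus all highest with PBS, the only array in slide row 1.

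Of the calcitonin peptide genes, Calca gave 290.5 with PBS, 487 with AEPS, 311 with OVA, 337 with OVA+AEPS and 853 with OVA+Alum, and was higher with OVA+Alum than with OVA by 1.48 and than with PBS by 1.22. Calcb was dimmer, at 59.4 with OVA, 21.8 with OVA+AEPS and 66.7 with OVA+Alum, and differed between OVA+AEPS and OVA by -1.31. Calca and Calcb were thus higher with alum than with AEPS beside ovalbumin, which is the reverse of Adm: the differences of OVA+AEPS from OVA+Alum were -1.23 for Calca and -1.50 for Calcb. Ramp1, which joins Calcrl to form the receptor of their peptides, differed from PBS by -0.53 to 0.11. Calcr, the calcitonin receptor gene, differed by -0.09 to 0.96, Crcp, which encodes a component of the Calcrl and Ramp1 receptor, by -0.44 to -0.21, and the dim peptidase gene Mmel1 by -0.24 with OVA and -0.52 with OVA+Alum.

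**Figure D4:**
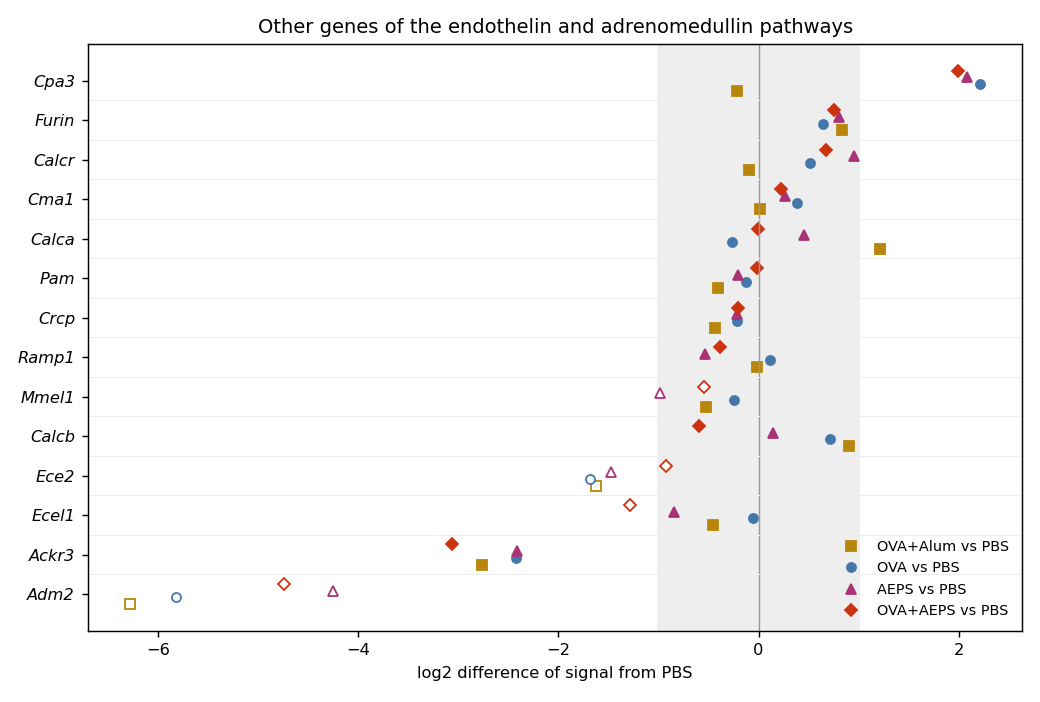
Log2 difference from PBS (horizontal axis) for the 14 other pathway genes above background on at least 1 array, with 1 symbol per treatment; open symbols are not well above background on the treated array, and grey marks differences under 2-fold. Cpa3 lies at 2.00 to 2.21 on 3 arrays and at -0.21 with OVA+Alum, Ackr3 lies between -3.07 and -2.42, and the open Adm2 symbols lie far to the left, where only a bound is known.

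Genes of neighbouring programmes were counted from lists. In the same comparisons with PBS, 6.38% to 8.82% of all genes were higher past 2-fold and 3.93% to 6.79% lower. Of 12 genes of the hypoxia response, a known inducer of Edn1 and Adm, 2 (Egln3 and Hk2) exceeded their PBS level by 2-fold or more with AEPS and 2 (Vegfa and Ankrd37) were lower, and with OVA 1 was higher and 0 lower. With OVA+AEPS 2 were higher and 3 lower, and with OVA+Alum 3 were higher and 1 lower. The list thus held calls in both directions on 3 of the 4 arrays, and its part in the levels of Edn1 and Adm was not tested. Of 13 inflammatory and vasoactive genes, 6 were higher and 3 lower with AEPS, 3 higher and 2 lower with OVA, 6 higher and 2 lower with OVA+AEPS, and 6 higher and 1 lower with OVA+Alum. Nos2, the inducible nitric oxide synthase gene, gave 1186 with PBS, 6349 with AEPS, 4409 with OVA, 8106 with OVA+AEPS and 2472 with OVA+Alum, which is the order of Edn1; Nos2 was singled out after its values were seen.

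Profiles nearest to each gene were taken as those with the smallest root mean square (RMS) difference of log2 levels over the 5 arrays, each profile centred on its own mean, among 14391 genes above background on at least 3 arrays. The search was made for the 4 genes that spanned at least 2-fold. For Edn1 the nearest were Cxcl10 (RMS difference 0.58), Mmp13 (0.64), Tnfsf15 (0.76), Ifit1 (0.82) and Ifih1 (0.85). Mmp13 and Tnfsf15 were above background on 4 of the 5 arrays, with PBS signals of 3.05 and 6.84 below that limit, so their distances rest on an unmeasured PBS level. Cxcl10, Ifit1 and Ifih1 are interferon-inducible genes, of a chemokine, an antiviral protein and an RNA sensor. The Cxcl10 signal was 1715 with PBS, 119097 with AEPS, 19104 with OVA, 120357 with OVA+AEPS and 10206 with OVA+Alum. Cxcl10 and Edn1 differed most with OVA, where the centred level was -0.30 for Cxcl10 and 0.76 for Edn1.

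For Adm the nearest profiles were those of Tasor2 (0.098), Fndc7 (0.14), Tlr7 (0.17), Gm4759 (0.18) and Stxbp3 (0.19); Tlr7 encodes a sensor of single-stranded RNA. For Calcrl they were Mrpl47 (0.13), Acvr2a (0.13), Naa15 (0.14), Zfp770 (0.15) and Nudt17 (0.15), of which Acvr2a was above background on 4 arrays only. For Ednrb they were Calr (0.075), Dmpk (0.077), Chid1 (0.088), AA792892 (0.092) and Ptk2 (0.093); Calr encodes the chaperone calreticulin. With 5 arrays and many genes, close profiles are frequent, and no p-value is given.

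**Figure D5:**
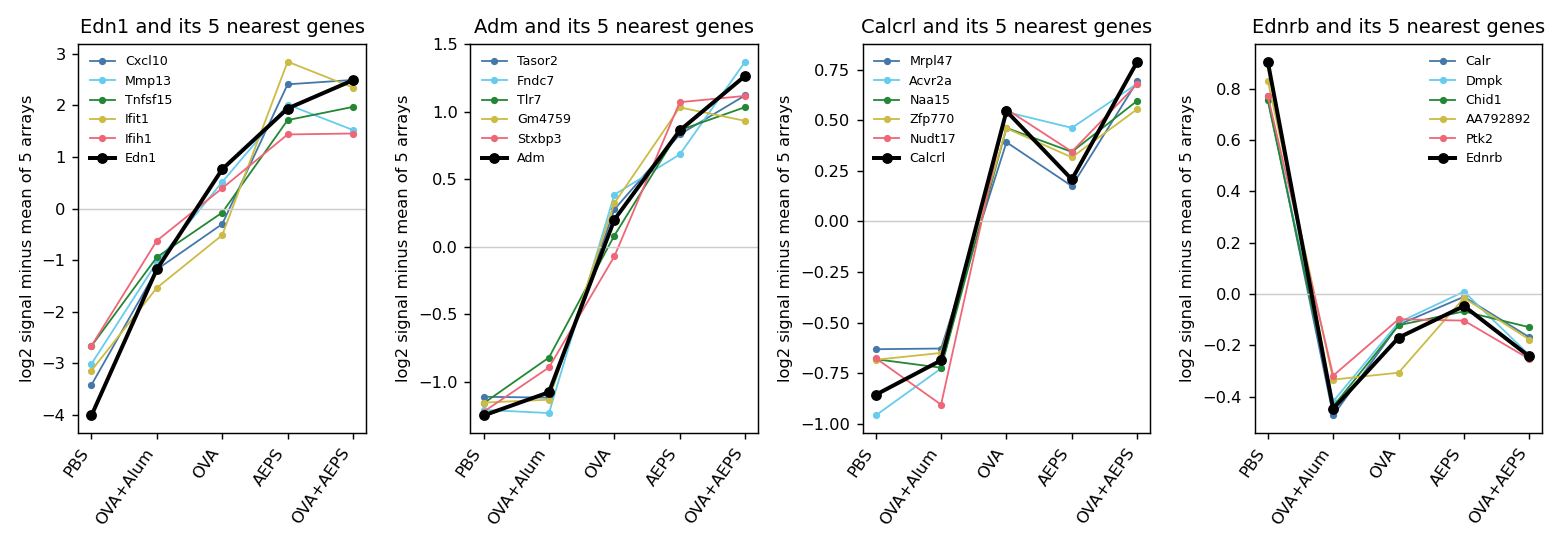
Centred log2 level (vertical axis, level minus the mean of the gene over the 5 arrays) of Edn1, Adm, Calcrl and Ednrb in black and of their 5 nearest genes in colour on each array; vertical scales differ between panels. Edn1 runs from -4.01 with PBS to 2.49 with OVA+AEPS and its neighbours follow within 0.58 to 0.85 RMS. The neighbours of Ednrb follow within 0.075 to 0.093. Edn1 spanned 6.50 and Ednrb 1.35, so these RMS differences are not set against each other.

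The makeup of the lavage differed between arrays as well, and in RNA of mixed cells fewer cells of a type and less RNA per cell cannot be told apart. All 11 measured macrophage markers were above background on every array, as were all 8 B cell markers and all 9 T and NK cell markers. For the marker counts below, the shares of all genes past 2-fold against PBS were 6.38% to 8.82% higher and 3.93% to 6.79% lower. The summed signal of the macrophage markers, in multiples of the 75th percentile, was 1994 with PBS and 982 with OVA+Alum. It was between 1383 and 1573 with AEPS, OVA and OVA+AEPS. With OVA+Alum 9 of the 11 were at least 2-fold lower than with PBS. With AEPS 1 was lower (Gata6), with OVA 1 (Fcgr1) and with OVA+AEPS 1 (Gata6), and 0 were higher with any treatment. Of the B cell markers only Cd79b was lower past 2-fold, with AEPS and with OVA+AEPS. Of 11 neutrophil markers, 8 were higher than with PBS on the AEPS and OVA+AEPS arrays and 9 on the OVA and OVA+Alum arrays. None was lower. The summed signal of the neutrophil markers was 1445 with PBS and 2316 to 2760 on the others. S100a8 and S100a9 made the largest part of this sum on every array. The log2 level of S100a9 was 9.79 with PBS and 10.05 to 10.18 on the others. The median log2 level of the 11 markers was 2.28 with PBS and 4.59 to 5.83 on the others.

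Of 10 mast cell markers, 5 exceeded their PBS level by 2-fold or more on each of the AEPS, OVA and OVA+AEPS arrays (Cpa3, Fcer1a, Ms4a2, Hdc and Mrgprb2), and 1 (Hdc) with OVA+Alum. Their summed signal was 384 with PBS and 590 to 719 on the others. Hdc made the largest part of this sum on each treated array. Its signal was 28307 with PBS, 123894 with AEPS, 85430 with OVA, 105989 with OVA+AEPS and 122684 with OVA+Alum. The median log2 level of the 10 markers was 2.60 with PBS, 2.66 with OVA+Alum and 3.72 to 3.79 on the other arrays. Cpa3, Fcer1a and Mrgprb2 also had the 2-fold gap below the other arrays on column 4, as Edn1 and Adm did, while Cma1, Mcpt4 and Tpsb2 differed by less than 2-fold. Of 14 mesothelial and stromal markers 3 were higher than with PBS with AEPS, 0 with OVA, 4 with OVA+AEPS and 11 with OVA+Alum, and none was lower. Their summed signal was 13.1 with PBS, 26.6 with AEPS, 17.3 with OVA, 25.4 with OVA+AEPS and 36.6 with OVA+Alum.

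Calcrl, Ramp2, Ednrb and Edn1 are well known from endothelial cells, so 14 endothelial markers were examined. Between 7 and 9 of them were above background on an array. Tek, Emcn, Sox18 and Prox1 were not above background on any array, and the signal of Cdh5, which encodes the junction protein VE-cadherin, was 19.1 with PBS, 5.27 with AEPS, 17.6 with OVA, 11.5 with OVA+AEPS and 26.3 with OVA+Alum. Vwf, the gene of von Willebrand factor, gave 77.9 with PBS, 46.2 with AEPS, 97.7 with OVA, 37.9 with OVA+AEPS and 149 with OVA+Alum. Cldn5, a tight junction gene, gave 16.7 with PBS, 23.4 with AEPS, 24.7 with OVA, 34.5 with OVA+AEPS and 20.3 with OVA+Alum. Esam, which encodes an adhesion molecule, was past 2-fold higher than with PBS on the OVA+AEPS and OVA+Alum arrays, at 27.5 and 56.5 against 10.9, and Tie1 was above background with OVA only, there at least 2.97-fold higher than with PBS. The endothelial markers thus did not move as 1 group, and several were dim. Pecam1, also made by leukocytes, lay between 255 and 299 on all 5 arrays, and Kdr lay between 8073 and 10235. The summed endothelial signal was 35.2 with PBS and 24.4 to 30.6 on the other arrays. Kdr was by far the brightest of the markers on every array. The sum therefore largely follows Kdr, and no endothelial content is read from it. The part of shifts in cell makeup in the differences of the 8 genes was not tested.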

How the data were processed

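The deposited scanner files hold intensity values, which the authors made with Agilent Feature Extraction 10.7.1.1 (background subtraction and detrending within each array), per the file headers. Flags per spot in the deposited files are other values of 0 or 1. A deposited value table gives log2 values that the authors had normalized between arrays; these correlated at 0.9998 or above with the log2 signal of the scanner files, each column's median was 4.66, and their centring and method are not given in the sources used here. It served as an alternative. A genome build is not given in the sources used here.

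Each array has 62976 spots. Control spots (3671) and outlier spots (134 to 219) were left out, and spots of a probe were averaged. The log2 processed signal minus the array's 75th percentile was the level of a probe. Of 55681 probes, 26582 had 1 gene symbol through their RefSeq accession, 29099 had none and 0 had several. A gene was represented by its probe with the highest mean log2 level. A probe was above background where at least 50% of its spots were flagged so. A bound ("at least N-fold") sets the bright array against the higher of the dim probe's signal and the lowest signal above background on the dim array.

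The members and lists were chosen with earlier results of these data known. The named genes were the 8 members, genes of the fixed lists, and the 5 nearest profiles of members spanning at least 2-fold. AEPS against OVA and against OVA+Alum were added after seeing the data, to complete the 10 pairs. A further gene of the pathway list as first written was left out of its 20 and is not reported here. Calculations were checked on simulated data. Alternatives were other scalings, normexp (offset 50), the probe summary and the background filter. Python 3.11.15, pandas 2.3.3, numpy 2.4.6, R 4.3.3 and limma 3.58.1 were used. The number of arrays limits the precision.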

Additional observations from a re-analysis of the deposited data

How the results depend on the processing

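Of 384 values of the 8 genes under 6 alternatives, 368 moved by less than 1.96 technical SE, 16 moved further and 0 called values changed sign. Of 126 calls at 2-fold, which are the same 21 counted under each alternative, 117 were kept and 1 was added. One alternative was the median over the probes of a gene. Only Ednrb had more than 1 probe, so that alternative could not change the values of the other genes. Edn1 in AEPS against PBS was 6.54 with spike-in scaling and 4.42 with normexp, and Adm was 2.70 with spike-in scaling. With normexp Edn1 was 3.26 in OVA against PBS and 1.60 in OVA+Alum against PBS. The count of genes past 2-fold was lower with normexp in all 8 comparisons. It was 1130 against 2332 for AEPS and PBS, 638 against 1635 for OVA and PBS, 1088 against 2157 for OVA+AEPS and PBS, and 780 against 1762 for OVA+Alum and PBS. It was 475 against 1151 for OVA+AEPS and OVA, 504 against 1455 for OVA+Alum and OVA, 953 against 1966 for OVA+AEPS and OVA+Alum, and 187 against 586 for OVA+AEPS and AEPS. With a filter on both arrays the count was 695 for OVA+AEPS and OVA and 205 for OVA+AEPS and AEPS, and with no filter 1778 and 1133, since fewer or more dim genes enter. Spike-in scaling made 90.4% of the calls in AEPS against PBS higher ones, against 56.5% in the main setting. The number of genes at least 2-fold lower on both column 4 arrays was 90 with normexp and 259 with spike-in scaling, against 177. Other causes of these shifts were not tested. No paired analysis was possible because each group has 1 array and the labels carry no replicate numbers. Dim signals limit Calcrl, Ramp2 and the PBS level of Edn1.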
